A study of Mus musculus with 3 samples.

Results

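The microRNAs miR-103-3p and miR-107-3p were followed in small RNA libraries from wild-type C57BL/6 mouse hearts taken 1 day (P1), 7 days (P7) or 28 days (P28) after birth, the weeks in which cardiomyocytes withdraw from the cell cycle. They were taken from a count table by their miRBase accessions. MIMAT0000546 is miR-103-3p, which has 2 rows, and MIMAT0000647 is miR-107-3p, which has 1 row. These are 3 of the 2049 rows of the table and 2 of its 1900 mature accessions. Each age had 1 untreated library. Nothing given with the samples says how many hearts went into a library. The labels give heart as the tissue, whereas the text of the study names ventricles. The total of the counts in the table rose with age, from 1944237 in the P1 library to 2465680 in that of P7 and 2842526 in that of P28. As the table pairs no accession with a name, markers of cardiac muscle and of other heart cells were not checked.

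A miRNA guides the silencing complex to messenger RNAs, mainly through its seed, the bases next to its 5′ end. miR-103-3p and miR-107-3p form 1 family in vertebrates. They are made from introns of the pantothenate kinase genes, whose enzymes start the synthesis of coenzyme A, a carrier of acyl groups that fatty acid oxidation and the citric acid cycle depend on. In liver and fat the family is known for lowering insulin sensitivity, with caveolin-1 as a target. It also targets Dicer, the enzyme that cuts miRNA precursors. In cardiomyocytes the death adaptor FADD has been described as a target.

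The mature sequences are shown because they set what the counts can tell apart. They are given 5′ to 3′ as RefSeq annotates them on GRCm38.p6, with the seed, bases 2 to 8, in capitals.
miR-103-3p: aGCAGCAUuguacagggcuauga
miR-107-3p: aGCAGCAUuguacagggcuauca
Both are 23 bases long, and they share their first 21 bases. The only difference is G22C, counted from the 5′ end with miR-103-3p first, which lies outside the seed. A read of 21 bases or fewer from the 5′ end therefore carries no base that tells one from the other. Among 1679 mature miRNA names in the RefSeq table, the seed GCAGCAU was found in 2, namely this pair.

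Bases 1 to 7 of the pair, AGCAGCA, are at the same time the seed of another group of miRNAs, shifted by 1 base. That seed was found in 10 of the 1679 names (0.596%), which include members of the miR-15 family, known for restraining the cell cycle. A pair of them is shown, with bases 2 to 8 in capitals, to make the shift visible.
miR-15a-5p: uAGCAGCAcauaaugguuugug
miR-195a-5p: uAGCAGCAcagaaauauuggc
The levels of these relatives were not analysed here, for want of a source that ties their names to accessions.

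The 3 precursors lie on 3 chromosomes, each within a pantothenate kinase gene and on its strand (GENCODE M21, GRCm38). Mir103-1 is at chr11:35782396-35782481 on the plus strand, in intron 5 of 6 of the Pank3 transcript that GENCODE marks as principal. Mir103-2 is at chr2:131288052-131288137 on the plus strand, in intron 5 of 6 of the principal Pank2 transcript. Mir107 is at chr19:34820687-34820773 on the minus strand, in intron 5 of 6 of the principal Pank1 transcript. In these protein-coding transcripts the miRNA thus occupied the intron of the same number in all 3 genes. Whether an exon of another annotated transcript of these genes overlaps a precursor was not checked. The introns themselves differed in length, with 1740 bases in Pank3, 5801 in Pank2 and 7282 in Pank1. Mir107 began 326 bases after the upstream exon, Mir103-2 454 bases and Mir103-1 688 bases after it. The messenger RNAs of these host genes were not analysed here.

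The precursors are printed to show how little sequence can place a read at 1 gene. The mature 3p miRNA is in capitals, and the sequences are 5′ to 3′ from RefSeq.
Mir103-1: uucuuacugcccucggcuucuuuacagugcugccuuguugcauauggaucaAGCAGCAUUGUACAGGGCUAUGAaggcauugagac
Mir103-2: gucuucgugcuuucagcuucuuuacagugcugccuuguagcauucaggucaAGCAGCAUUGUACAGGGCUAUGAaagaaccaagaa
Mir107: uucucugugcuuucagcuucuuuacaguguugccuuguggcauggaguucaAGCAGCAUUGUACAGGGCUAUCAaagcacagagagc
The precursors of miR-103-3p have the same 23 mature bases, the same 3 bases before them and the same 1 base after them. A read within this stretch fits both genes equally. Mir103-2 and Mir107 share 3 bases before and 3 bases after the mature stretch.

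Both miRNAs were lower at P7 than at P1 and lower again at P28. Levels are given as CPM, the reads of a miRNA per 1000000 counts of its library, with 95% Wilson intervals that cover counting error only. With the reads of its rows summed, miR-103-3p had 13129 reads at P1, which is 6753 CPM (6639 to 6869). At P7 its 12336 reads made 5003 CPM (4916 to 5092), and its 5909 reads at P28 made 2079 CPM (2027 to 2132). miR-107-3p had 4288 reads at P1, which is 2205 CPM (2141 to 2272). Its 3836 reads at P7 made 1556 CPM (1507 to 1606), and its 2286 reads at P28 made 804 CPM (772 to 838). For each miRNA the intervals of the 3 libraries did not overlap, and neither did those of each row of miR-103-3p alone. The intervals of the sum are too narrow if reads that fit both rows were counted at each. With 1 library per age these differences have no replicate check, and no test between ages was possible. Whole tissue was sequenced, so fewer cells of a type and less miRNA per cell cannot be told apart.

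**Figure D1:**
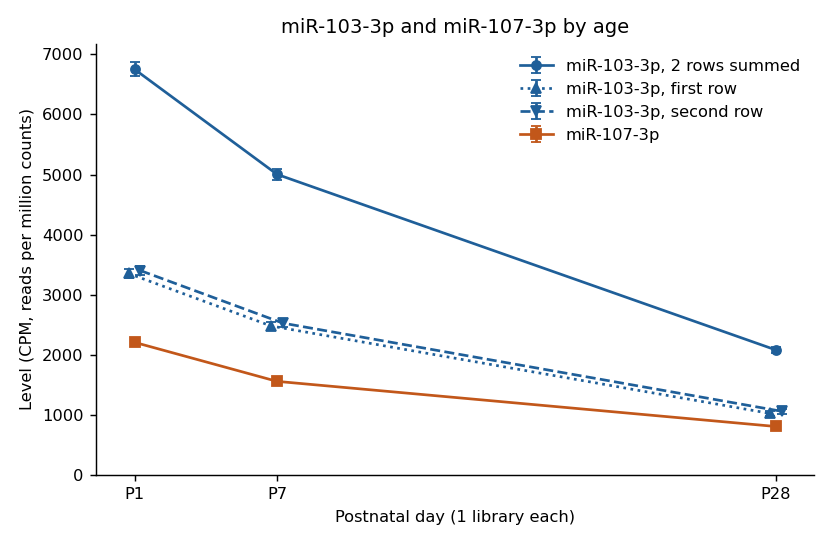
Levels of miR-103-3p (both rows, and their sum) and miR-107-3p in CPM (vertical axis, from 0) against postnatal day (horizontal axis), 1 library per age; bars are 95% Wilson intervals for counting error, and points of the rows are set slightly apart. All 4 lines descend from P1 to P28, the sum of miR-103-3p from 6753 to 2079 CPM and miR-107-3p from 2205 to 804 CPM.

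The pair also lost rank among the miRNAs of the heart. Among mature accessions ordered by level, miR-103-3p was number 17 at P1, 21 at P7 and 30 at P28. miR-107-3p was number 34, 42 and 52 at these ages. The accessions with at least 1 read numbered 657, 712 and 606. Together the pair took up 0.896% of the P1 library, 0.656% of the P7 library and 0.288% of the P28 library. These values rest on the sum of the rows of miR-103-3p. With its first row alone, miR-103-3p was number 25, 33 and 45, and the pair took up 0.556%, 0.403% and 0.183% of the libraries. Some rows carry the same or nearly the same counts as another row. For example, a mature accession averaged 72827 CPM and another had the same mean. Some rows are not of mature accessions, and 1 of these averaged 13029.6 CPM beside a mature row at 13029.3 CPM. Such repeats were kept, so they enlarge the library totals and stand among the rows compared below. Those of mature accessions also take places in the order.

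The first comparison asked how the pair changed over the first week. On the log2 scale, with 0.5 reads added to each count, the ratio of P7 to P1 was -0.43 for miR-103-3p (95% Clopper-Pearson interval for counting error -0.47 to -0.40). The level at P7 was 74.1% of that at P1. For miR-107-3p the ratio was -0.50 (-0.57 to -0.44), which left 70.5% of the P1 level. Of the 317 rows with a mean of at least 10 CPM, which include all 3 rows of the pair, 22.1% differed at least 2-fold in either direction between P7 and P1, and 0 of the 3 did. The median row had a log2 ratio of 0.02. A total of 93 of the 317 rows had a lower ratio than miR-103-3p, and 85 had a lower ratio than miR-107-3p.

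Between P1 and P28 the differences were larger. The log2 ratio of P28 to P1 was -1.70 for miR-103-3p (-1.74 to -1.66), a level 3.25-fold lower. For miR-107-3p it was -1.46 (-1.53 to -1.38), a level 2.74-fold lower. All 3 rows of the pair were at least 2-fold lower, as were 40.7% of the 317 rows, so a difference of this size was common between these libraries. The median row had a log2 ratio of -0.64, and relative to it miR-103-3p was lower by a log2 difference of -1.06 and miR-107-3p by -0.82. For comparison with rows as abundant as these, of the 72 rows whose mean reached 1000 CPM, the 3 of the pair included, 17 were at least 2-fold lower at P28 than at P1 (23.6%), and the median log2 ratio of the 72 was -0.18.

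Between P7 and P28 the members came to lie on different sides of the 2-fold mark. The log2 ratio of P28 to P7 was -1.27 for miR-103-3p (-1.31 to -1.22), or 2.41-fold lower. For miR-107-3p it was -0.95 (-1.03 to -0.88), or 1.93-fold lower, with an interval that includes 2-fold. Thus 2 of the 3 rows, both of miR-103-3p, were at least 2-fold lower, against 39.1% of the 317 rows. Of the 72 abundant rows, 15 (20.8%) were. The median log2 ratio of all rows was -0.64 here as well.

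**Figure D2:**
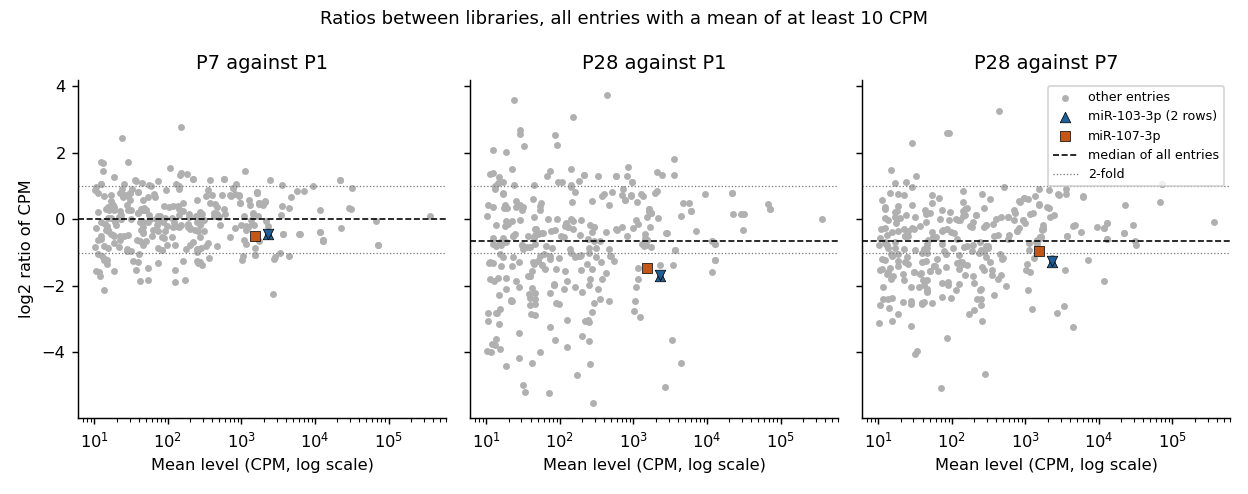
Log2 ratio of CPM (vertical axis) against mean level in CPM (horizontal axis, log scale) for the 317 rows with a mean of at least 10 CPM, 1 panel per comparison; coloured symbols are the 3 rows of the pair, the dashed line is the median of all rows and dotted lines mark 2-fold. The pair lies below the median in each panel, inside the 2-fold lines at P7 against P1 and below them at P28 against P1.

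How libraries are scaled bears on these ratios. The direction was downward in each comparison, for both miRNAs, under all of the 36 alternative values computed. These include values with a larger pseudocount or a single row of miR-103-3p, which do not bear on scaling. The size was not stable. TMM factors moved the median log2 ratio of all rows by 0.56 at P28 against P1 and by 0.59 at P28 against P7, and the ratios of the pair moved with it. At P28 against P1, miR-103-3p was then at -1.14 and miR-107-3p at -0.90, the latter no longer 2-fold lower. At P28 against P7, miR-103-3p was at -0.68 and miR-107-3p at -0.36, neither of them 2-fold lower. Under TMM 26.8% of the 317 rows were at least 2-fold lower at P28 than at P1, and 21.8% at P28 than at P7.

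**Figure D3:**
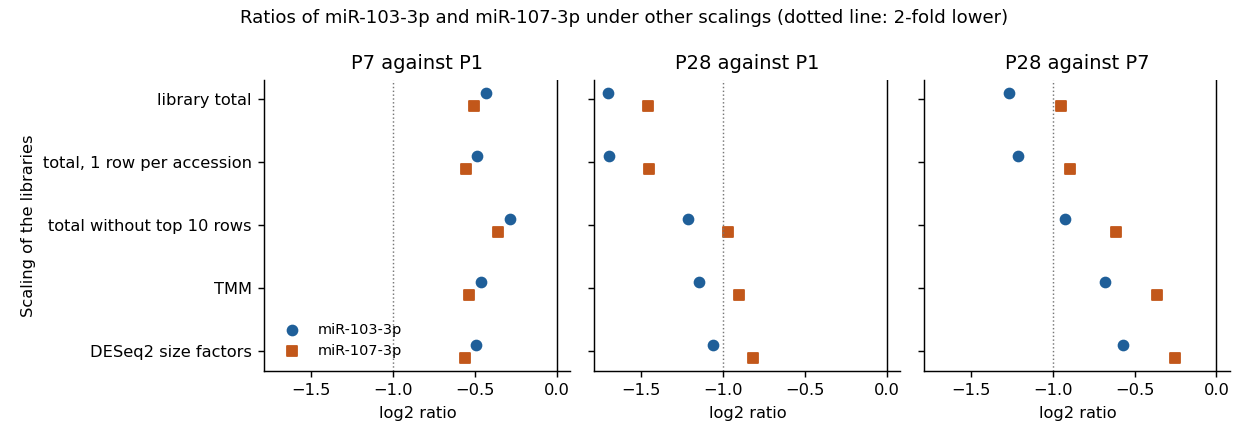
Log2 ratios (horizontal axis) of miR-103-3p and miR-107-3p under 5 scalings of the libraries (vertical axis), 1 panel per comparison, with no difference as a solid line and 2-fold lower as a dotted line. All points lie below 0; by library totals miR-103-3p is at -1.70 at P28 against P1, and under DESeq2 size factors at -1.06.

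How the fall was divided between the periods depended on the scaling. By library totals, miR-103-3p had lost 1750 CPM by P7 of the 4674 CPM lost by P28 (37.4%), and miR-107-3p had lost 650 of 1401 CPM (46.4%). On the log2 scale these parts were 25.5% and 34.6%. Under TMM they were 40.5% and 59.4%, and under DESeq2 size factors 46.2% and 68.7%, so that the larger part of the log2 fall of miR-107-3p then came before P7. The part was larger in miR-107-3p than in miR-103-3p under each of the 5 scalings. A scaling shifts the log2 ratios of both members by the same amount. The order of the log2 parts therefore could not change while the ratios stayed negative, and its recurrence is no separate check. The order rests in part on the difference between the members at P7 against P1, whose counting interval was -0.14 to 0.0018.

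The balance within the pair is free of scaling, since both are counted in the same library. In the P1 library miR-107-3p made up 24.6% of the reads of the pair (95% Wilson interval 24.0 to 25.3). Its share was 23.7% in the P7 library (23.1 to 24.4) and 27.9% in the P28 library (26.9 to 28.9). With the first row of miR-103-3p alone in place of the sum, the shares were 39.7%, 38.6% and 44.0%, again highest at P28. By the sum, the shares at P1 and P7 had overlapping intervals, and the share at P28 was above both. Put as ratios, for each read of miR-107-3p there were 3.06 reads of miR-103-3p at P1, 3.22 in the P7 library and 2.58 in the P28 library. The log2 ratio of P28 to P1 was higher in miR-107-3p than in miR-103-3p by 0.24 (exact conditional 95% interval 0.16 to 0.33), and that of P28 to P7 by 0.32 (0.23 to 0.40). For P7 against P1 the difference was -0.07 (-0.14 to 0.0018), an interval that includes 0. Thus the difference between the members at P28 was larger than counting error, while its relation to the spread between hearts could not be tested.

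**Figure D4:**
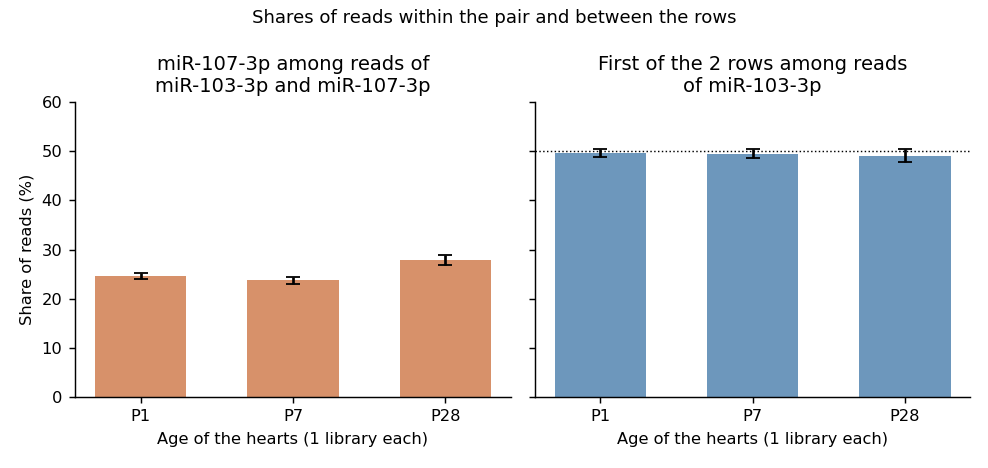
Shares of reads in percent (vertical axis, from 0) at each age (horizontal axis, 1 library each) for miR-107-3p within the pair (left) and the first row within miR-103-3p (right); bars carry 95% Wilson intervals for counting error and the dotted line marks 50%. The share of miR-107-3p is 27.9% at P28 against 24.6% at P1, and the first row stays between 49.2% and 49.6%.

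The rows of miR-103-3p, which by the convention of miRBase stand for copies of 1 mature sequence, were nearly equal at every age. At P1 they had 6518 and 6611 reads, at P7 6110 and 6226, and at P28 2905 and 3004. The first row thus held 49.6% of the P1 reads (48.8 to 50.5), 49.5% of the P7 reads (48.6 to 50.4) and 49.2% of the P28 reads (47.9 to 50.4). The second row had 93 reads more at P1, 116 more at P7 and 99 more at P28. If reads that fit both copies were counted at each, the split is even by construction and these intervals do not apply. If each such read was placed at random at 1 copy, the split is near even by construction too. The log2 ratios of the rows at P28 against P1 were -1.71 and -1.69, which differed by 0.03 (-0.06 to 0.12). Under either way of counting, this likeness was largely fixed in advance.

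Not all accessions with 2 rows had such a split. Among 21 others that reach a mean of 100 CPM, after leaving out 1 whose counts were identical to those of another, the first row held 45 to 55% of the pooled reads in 8. The share of the first row of miR-103-3p, with 31374 reads in all, ranged over 0.484 percentage points between the libraries. In the 8 even accessions, with 2891 to 90011 reads, that range was 0.414 to 3.78 points, and it widens with fewer reads by counting error alone. Which row stands for Mir103-1 and which for Mir103-2 is not given. The rows are therefore not read here as the output of Pank3 and Pank2.

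The level of miR-103-3p relative to miR-107-3p rests on how reads that fit both copies were counted, which is not given in the sources used here. If each such read was counted at both copies, the sum counts it again, and a single row is the better measure of every level given above for miR-103-3p. Every interval above that uses the sum, for levels, ratios or shares, would then be too narrow. With the first row alone, the log2 ratio of P28 to P1 was -1.71 (-1.78 to -1.65). That of miR-107-3p was higher by 0.26 (0.16 to 0.36). A single row was still above miR-107-3p in each library, for the first row by 1.52-fold at P1, by 1.59-fold in the P7 library and by 1.27-fold in the P28 library. The order of the pair was therefore the same either way, and the ratios between ages differed little, as the rows moved together. Reads could also pass between miR-103-3p and miR-107-3p, given the single base between them. No row of another accession had counts within 1% of a row of the pair in all 3 libraries, so the pair was not a duplicate of another entry in the table.

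The accessions most like the pair in pattern were sought among the 134 mature accessions whose mean reached 100 CPM. Likeness was the distance between points whose coordinates were the log2 ratios of P7 to P1 and of P28 to P1, over 3 libraries. The nearest to miR-103-3p was MIMAT0004187 at a distance of 0.13, which went from 365 CPM at P1 to 289 at P7 and 106 at P28. The nearest to miR-107-3p was MIMAT0003127 at a distance of 0.05, which went from 397 CPM to 277 and 140. miR-107-3p was at place 4 of 133 from miR-103-3p, and miR-103-3p at place 2 of 133 from miR-107-3p, at a distance of 0.25. The members were thus near each other in pattern without being each other's nearest. The 5 nearest to miR-103-3p had log2 ratios of P28 to P1 between -1.79 and -1.46, and the 5 nearest to miR-107-3p between -1.70 and -1.21. With accessions down to a mean of 10 CPM included, 1 of the 5 nearest to miR-103-3p and 2 of the 5 nearest to miR-107-3p were the same. In that wider set miR-107-3p was at place 9 of 278 from miR-103-3p, and miR-103-3p at place 5 of 278 from miR-107-3p.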

How the data were processed

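Small RNA libraries were prepared with a NEBNext kit. Per the labels, bcl2fastq and TopHat were used with mm10, and the methods of the study name TopHat2 and counting with Bioconductor packages for its RNA-seq in general. The authors deposited raw read counts per accession with no normalization. How multiply mapping reads, strand and mismatches were handled, and the miRBase release, are not given in the sources used here. Molecular identifiers are not stated, so intervals cover counting error only.

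Columns were matched to ages by name. Counts were divided by the column total. Rows that repeat the counts of another were kept in the totals and the rows compared, except under 1 row per mature accession. Some of them are not of mature accessions, and the ranks leave these out. Log2 ratios used 0.5 reads as pseudocount. The background was every row with a mean of at least 10 CPM, and past 2-fold means a log2 ratio of at least 1 in size. With 1 library per age, no count model could be fitted and no test was run. A count of 3 reads corresponds to 1.54 CPM at P1, 1.22 at P7 and 1.06 at P28. Interval coverage and fold calls were tested on simulated data that held counting error only, with changes either absent or well past 2-fold. Spread between hearts and reads counted at both rows were not simulated, so that test has no bearing on them.

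Alternatives were TMM (edgeR 4.0.16), DESeq2 1.42.0 size factors, the total without the 10 most abundant rows, 1 row per mature accession, a pseudocount of 5 reads, each row of miR-103-3p alone, filters at 1 and 100 CPM or none, and a ratio of 1.5. Taking each row alone for the share of miR-107-3p and the rank of miR-103-3p, and other scalings for the division of the fall between periods, were added after the data were seen. The members, lists and settings were chosen with earlier results of these data known. Named entries were the members, accessions matching their counts and the nearest in pattern. Of the latter, the nearest to each member is printed. Other arms of the precursors, the miR-15 family, metabolic miRNAs and cell markers were listed by name but have no values, since no source used here pairs names with accessions. Sequences are RefSeq's (GRCm38.p6), and introns are from GENCODE M21. Both use the assembly that mm10 names. Analyses used R 4.3.3, Python 3.11.15, numpy 2.4.6, pandas 2.3.3, scipy 1.17.1 and matplotlib 3.10.9.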

Additional observations from a re-analysis of the deposited data

How the results depend on the processing

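All 36 alternative log2 ratios of the pair were below 0, and 19 lay within the counting interval of the value by library totals. For miR-103-3p that interval is the one of the sum, which is too narrow if reads were counted at both rows. At P7 against P1, 1 row per mature accession (-0.484) lay outside it but inside the interval of the first row alone (-0.487 to -0.385). The number within thus depends on how such reads were counted. The 19 include every value with the larger pseudocount or with a single row of miR-103-3p. Those settings could hardly move ratios of counts this large or of rows this alike, so the 19 are no measure of stability under scaling. The 17 others were all moved by scaling, and the cause was not tested. Values are given for miR-103-3p and then miR-107-3p. For P28 against P1, they were at -1.14 and -0.90 under TMM, at -1.06 and -0.82 under DESeq2 size factors, and at -1.21 and -0.97 with the 10 most abundant rows left out of the total, so miR-103-3p was still 2-fold lower and miR-107-3p was not. At P28 against P7, these settings gave -0.68 and -0.36, -0.57 and -0.26, and -0.93 and -0.61, neither of them 2-fold lower, and 1 row per mature accession gave -1.21 for miR-103-3p. At P7 against P1, leaving out the 10 rows gave -0.29 and -0.36, and for miR-103-3p DESeq2 size factors gave -0.49 and 1 row per mature accession -0.48. With the first or the second row of miR-103-3p alone, the share of miR-107-3p was 39.7 or 39.3% at P1, 38.6 or 38.1% at P7 and 44.0 or 43.2% at P28, the highest at P28 in both. The part of the log2 fall reached by P7 moved by over 1.5 times under TMM (40.5 and 59.4%) and DESeq2 size factors (46.2 and 68.7%).

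The rows past 2-fold in either direction numbered 70 between P1 and P7, 168 between P1 and P28 and 134 between P7 and P28. In that order, a filter at 1 CPM gave 146, 305 and 255, at 100 CPM 36, 74 and 53, and no filter 431, 573 and 518. A ratio of 1.5 gave 152 at P7 against P1. At P28 against P1, 39 rows were higher and 129 lower by library totals, against 70 and 85 under TMM, 76 and 83 under DESeq2 size factors and 65 and 90 without the 10 rows. At P28 against P7 these were 10 and 124, then 42 and 69, 50 and 60, and 27 and 92. At P7 against P1, 33 were higher and 37 lower, against 46 and 28 without the 10 rows. No paired analysis was possible because a single library stands for each age, and leaving out a replicate was not possible for the same reason.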
